A study of Mus musculus with 6 samples.

Results

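The genes described here encode surface receptors with which blood progenitors find and hold their place in the marrow: the chemokine receptor Cxcr4, the selectin ligand Selplg, the hyaluronan receptor Cd44, the integrin subunits Itga4, Itga5, Itga6, Itgb1 and Itgb2, and the tetraspanin Cd9. The members were all probe sets (groups of short oligonucleotides that read 1 transcript region) whose annotated gene was 1 of these 9, out of 18194 named genes on the array, and 25 probe sets met that rule. Expression had been measured on 6 one-colour Affymetrix mouse arrays, with 3 arrays of B.D(Chr5) mice and 3 of C57B/L6 mice. The labels give the genetic background of B.D(Chr5) mice as B.D, with chromosome 5 in the strain name, and that of C57B/L6 mice as C57B/L6. Both groups were untreated young adult females of 6 to 16 weeks, and their bone marrow had been depleted of cells carrying mature lineage markers. The labels call the 3 samples of a strain biological replicates and leave unsaid whether an array held RNA of 1 mouse or of several, so each p reflects only the spread over these samples, which may be partly technical.

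Homing of a transplanted progenitor runs in steps. Selectins on marrow endothelium catch ligands such as PSGL-1, the product of Selplg, and CD44; the chemokine CXCL12 then signals through CXCR4 and switches integrins to their binding state; the integrins VLA-4, VLA-5 and VLA-6 hold the cell to VCAM-1, fibronectin and laminin. VLA-4, VLA-5 and VLA-6 pair the alpha subunits from Itga4, Itga5 and Itga6 with the beta subunit from Itgb1, while Itgb2 encodes the beta subunit of leukocyte integrins such as LFA-1. CD9 sits beside integrins in the membrane.

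Values are MAS5 signals in linear units, each array having been scaled to a trimmed mean of 500.003. The background level of an array was taken as the 95th percentile of its 27 probe sets for bacterial genes, which ranged from 21.8 to 38.0. By that measure each of the 9 genes had at least 1 probe set above background on all 6 arrays. The level is a low one: of all probe sets other than controls, 68.8, 64.8 and 63.3% exceeded it on the B.D(Chr5) arrays. On the C57B/L6 arrays 70.6, 71.2 and 69.3% did. Of the 25 probe sets, 19 were bright enough to be tested, being in the upper 50% of all probe sets by mean signal, and the other 6 were not tested. None of the 19 passed the strain comparison (0 of 19 at an adjusted p under 0.05 in limma, against 0.182% of all 22518 tested probe sets), and 0 of 19 had an unadjusted p under 0.05, against 4.75% of all. The groups did not overlap in 2 of 19 (10.5%), against 9.40% of all tested probe sets, so the members separated about as often as probe sets in general.

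**Figure D1:**
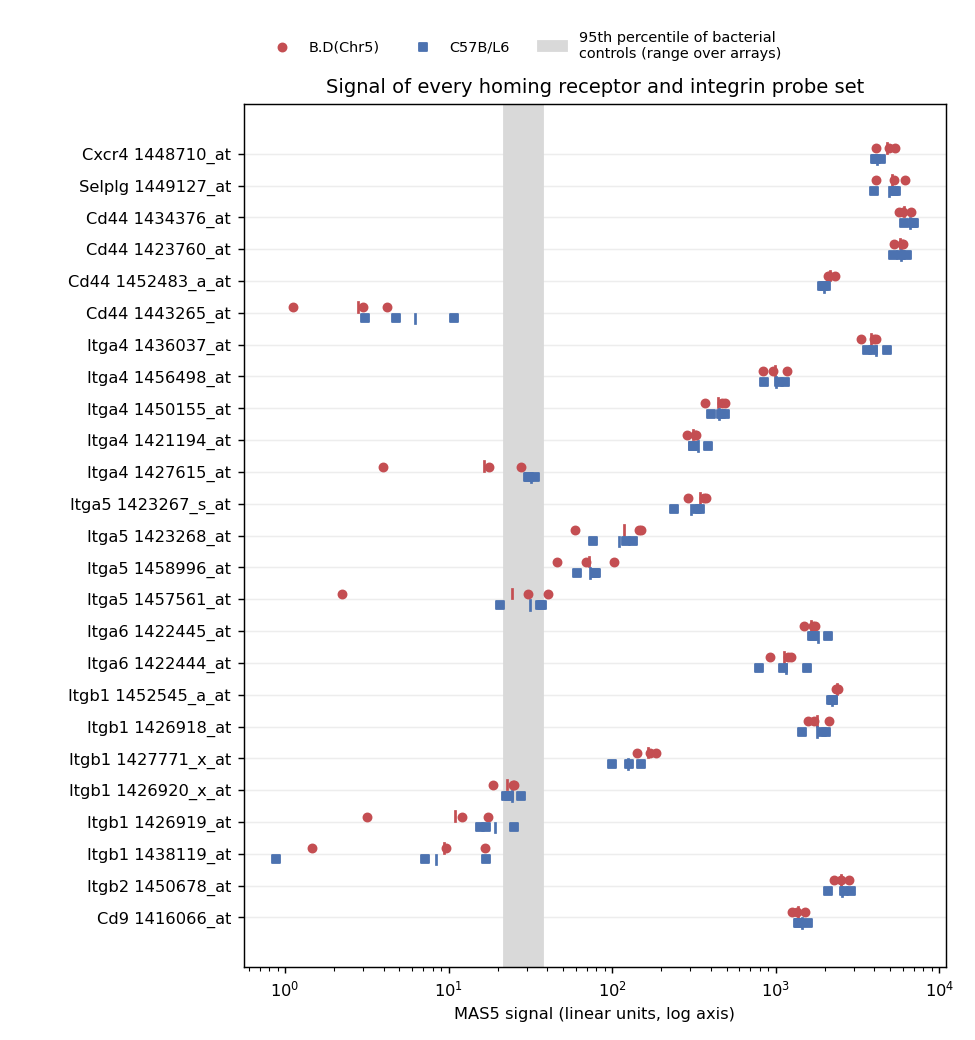
MAS5 signal (horizontal log axis) of all 25 probe sets of the 9 genes, 1 point per array, with red circles for B.D(Chr5), blue squares for C57B/L6 and short bars for the group means; the grey band is the range of the background level over the arrays. The points of both strains lie together for the bright probe sets. The dimmest ones lie in or below the band, apart from Itga5 1457561_at at 40.3 on B.D(Chr5) replicate 3.

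The sample check was made on marker genes. Kit, the stem cell factor receptor gene of early progenitors, read 4064, 5552 and 4060.0 in B.D(Chr5) and 5338, 4184 and 5252 in C57B/L6, and all 9 measured stem and progenitor markers were above background on all 6 arrays. Of these 9, 2 had positive and 7 negative log2 differences, and the 1 called gene of all 9 marker lists was Slamf1, a surface marker of stem cells. Its brighter tested probe set read 650.2, 841 and 596 in B.D(Chr5) and 266, 364 and 282 in C57B/L6, a log2 difference of 1.15 (SE 0.17, limma adjusted p = 0.0361), and the dimmer one, at 0.93, was not called (limma adjusted p = 0.274). With 1 array left out, the brighter one was called in 1 of 6 limma fits, with adjusted p from 0.0359 to 0.215. On all 6 arrays it was not called without the limma trend (adjusted p = 0.168) or without the filter on dim probe sets (limma adjusted p = 0.0751). Under the other processing alternatives fitted for it, it was called, with limma adjusted p from 0.0036 to 0.0464. Markers of mature or other cells were also above background on all arrays, for 8 of 9 T and NK cell genes, 7 of 7 B cell genes and 8 of 8 genes of maturing neutrophils. Each gene was taken by its brightest probe set, and most probe sets of an array exceeded that level. Such counts alone therefore do not show which cells were present. Over all tested probe sets, taken singly, the strains did not overlap in 9.40%, so a lack of overlap alone does not show a strain difference. The summed signal, which was not tested, did not overlap between the strains for 2 of 9 marker lists. That of maturing neutrophils was 50090 to 69018 in B.D(Chr5) and 41903 to 46414 in C57B/L6, and that of B cells was 2557 to 6351 in B.D(Chr5) and 2099 to 2534 in C57B/L6. The B cell ranges were apart by a narrow margin. In most genes of these lists B.D(Chr5) replicate 3 was the highest array. In replicates 1, 2 and 3 of B.D(Chr5), Ms4a1 read 304, 224 and 1113, and Camp read 4980, 5027 and 8473. The part of these cells in the member values was not tested. In such mixed RNA, fewer cells of a type and less RNA per cell cannot be told apart.

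Cxcr4, on chromosome 1, encodes the receptor through which CXCL12 retains progenitors in the marrow. Its 1 probe set read 4929, 4130.1 and 5373 in B.D(Chr5) and 4106, 4053 and 4407 in C57B/L6. The groups overlapped, since B.D(Chr5) replicate 2 lay within the C57B/L6 range and the other two B.D(Chr5) arrays lay above it. The means were 4811 ± 630 in B.D(Chr5) and 4188 ± 191 in C57B/L6 (SD, n = 3 each). The difference on the log2(signal + 16) scale was 0.19 with an SE of 0.10 and a 95% interval of -0.034 to 0.42 (limma adjusted p = 1.00), or 1.14-fold with bounds of 0.977 and 1.34. It had the smallest unadjusted p among the members, at 0.0868 in limma. With this SE, a log2 difference of 0.65 would have been needed to reach the largest p that passed.

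Selplg, on chromosome 5, is the member that lies on the chromosome after which the B.D(Chr5) strain is named. Its product PSGL-1 is the main ligand of P-selectin on blood cells. The 1 probe set read 5284, 4101 and 6133 in B.D(Chr5) and 4002, 5278 and 5447 in C57B/L6. Each strain had 1 low and 2 high arrays, and the ranges overlapped over most of their length. On the log2 scale the difference came to 0.069 (SE 0.16), with a 95% interval of -0.28 to 0.42 (limma adjusted p = 1.00). In folds that interval ran from 0.822 to 1.34, so a change of 1.5-fold in either direction lay outside it. A log2 difference of 1.02 would have been needed for a call. The sign of this difference was not fixed by the data: leaving out B.D(Chr5) replicate 3 gave -0.063, leaving out C57B/L6 replicate 1 gave -0.071, and leaving out B.D(Chr5) replicate 2 gave 0.23.

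The neighbours of Selplg on the chromosome also differed little on their brightest probe sets. Among the 10 tested genes on each side, in the gene order of the RefSeq annotation of GRCm38.p6, 0 of 20 were called in limma. The share called was 0.182% of all tested probe sets. On their brightest probe sets 0 of 20 had an unadjusted p under 0.05 in limma, against 4.75% of all. At those shares, few or none of any 20 genes would be called or have so low a p. Their log2 differences on these probe sets ran from -0.18 to 0.14 with a median of 0.0036. On the probe set with the smallest p of each gene, Usp30 had -0.39, Ssh1 -0.34 and Mvk 0.17, which lie outside that range. The nearest genes were Tmem119 at 0.029 and Coro1c, an actin-binding coronin, at -0.077, each on its brightest probe set. Tpst2, at the edge of this window, encodes a sulfotransferase of tyrosines, a modification that PSGL-1 needs to bind P-selectin, and its log2 difference was -0.13. The 4 called genes of the chromosome, Dnajc2, AI506816, Pus7 and Lcorl, all lay on 1 side, with 204 tested genes from Selplg to the nearest, Lcorl. Whether strain variants under the Selplg probes affect its signal was not tested.

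**Figure D2:**
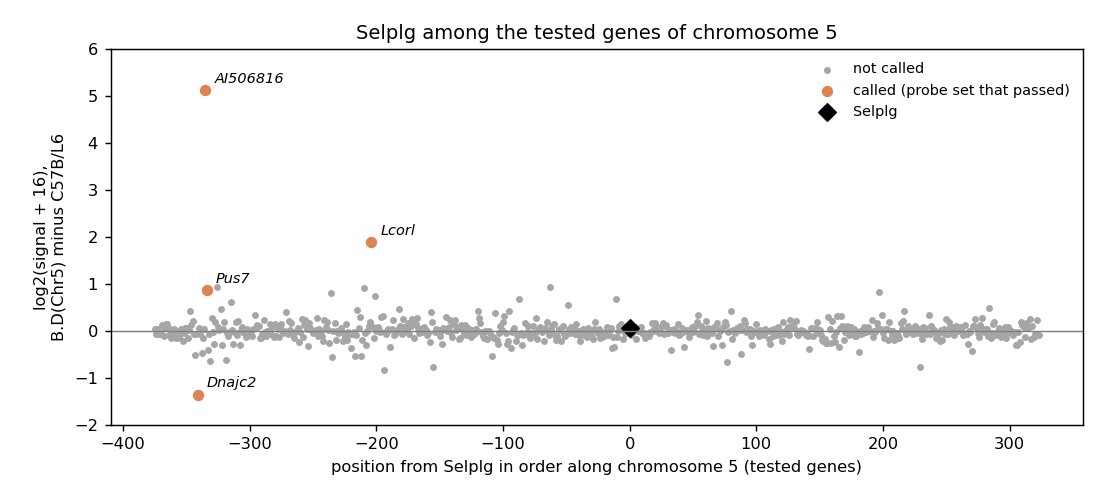
Log2 difference between B.D(Chr5) and C57B/L6 (vertical axis) of the 699 tested genes of chromosome 5 in their order along it, counted in tested genes from Selplg (horizontal axis), with the brightest probe set of each uncalled gene in grey. Selplg (black diamond, 0.069) lies on the line of its neighbours, and the 4 called genes (orange, at the probe set that passed) lie 204 to 341 tested genes away.

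Cd44, on chromosome 2, encodes a receptor for hyaluronan that in its glycosylated form also binds selectins. It had 4 probe sets, of which 3 were bright. The brightest, 1434376_at, read 5673, 6015 and 6672 in B.D(Chr5) and 6123, 6866 and 6989.8 in C57B/L6. The second, 1423760_at, read 5270.2, 6042 and 5939 in B.D(Chr5) and 5842, 5187 and 6371 in C57B/L6. In both the strains overlapped, with log2 differences of -0.12 (SE 0.086) and -0.0100 (SE 0.093).

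The third Cd44 probe set, 1452483_a_at, whose suffix marks probes shared by several transcripts of 1 gene, read 2108, 2290 and 2088 in B.D(Chr5) and 2016, 1931 and 1981 in C57B/L6. Here all 3 B.D(Chr5) arrays lay above all 3 of C57B/L6, by a small margin. The log2 difference was 0.13 with an SE of 0.080 and a 95% interval of -0.051 to 0.31, opposite in sign to both brighter ones. The fourth, 1443265_at, read 1.11 to 4.20 in B.D(Chr5) and 3.08 to 10.8 in C57B/L6, below background on all 6 arrays. Hence 1 of the 4 Cd44 probe sets gave no measurement of the gene, and the other 3 put a difference beyond 1.5-fold outside their 95% intervals.

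Itga4, on chromosome 2, encodes the alpha 4 subunit with which VLA-4 binds VCAM-1. Its brightest probe set, 1436037_at, read 3326, 3969 and 4112 in B.D(Chr5) and 3931, 3591 and 4761 in C57B/L6. The lowest array was of B.D(Chr5) and the highest of C57B/L6, with the others interleaved. The log2 difference was -0.10 with an SE of 0.12 and a 95% interval of -0.37 to 0.17 (limma adjusted p = 1.00). The other 3 tested probe sets, with mean signals of 989 ± 167, 445 ± 65.7 and 311 ± 21.9 in B.D(Chr5) and 1009 ± 149, 451 ± 46.6 and 335 ± 42.2 in C57B/L6 (SD, n = 3 each), had log2 differences of -0.031, -0.024 and -0.097. All 4 values were negative, and each interval held 0. The sign turned with 1 array left out in 3 of the 4, and the last reached -6.9e-05.

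The fifth Itga4 probe set, 1427615_at, was not tested for its low signal. It read 17.7, 3.99 and 27.6 in B.D(Chr5), below background on each of these arrays, and 30.7, 30.8 and 33.9 in C57B/L6, above it on each. The background level itself was 23.4, 31.8 and 38.0 on the B.D(Chr5) arrays and 22.8, 21.8 and 24.4 on the C57B/L6 arrays. All 3 C57B/L6 signals therefore lay below the background of B.D(Chr5) replicate 3, and no fold is given.

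Itga5, on chromosome 15, encodes the alpha 5 subunit of the fibronectin receptor VLA-5. The brightest of its 4 probe sets, 1423267_s_at, with a suffix for probes that may match transcripts of more than 1 gene, read 373, 363 and 292 in B.D(Chr5) and 331, 239 and 344 in C57B/L6. The strains overlapped, with a log2 difference of 0.17, an SE of 0.17 and a 95% interval of -0.22 to 0.56. The probe set 1423268_at read 151, 145 and 59.1 in B.D(Chr5) and 121, 134 and 76.0 in C57B/L6, and 1458996_at read 69.5, 45.7 and 102 in B.D(Chr5) and 78.6, 61.2 and 79.5 in C57B/L6. These 2 dimmer probe sets went opposite ways over the arrays: B.D(Chr5) replicate 3 was the lowest array for the first and the highest for the second. The ratio of their highest to their lowest array was 2.55 and 2.24, the widest among the tested members. Their intervals, in folds 0.609 to 1.72 and 0.622 to 1.49, were correspondingly wide. The fourth, 1457561_at, read between 2.22 and 40.3, was above background on 4 of 6 arrays and was not tested.

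Itga6, on chromosome 2, encodes the alpha 6 subunit of the laminin receptor VLA-6. Its probe set 1422445_at read 1738, 1690.4 and 1497 in B.D(Chr5) and 1663, 1707 and 2094 in C57B/L6. The log2 difference was -0.14 with an SE of 0.11 and a 95% interval of -0.39 to 0.10. The other, 1422444_at, read 924, 1195 and 1235 in B.D(Chr5) and 1108, 789 and 1559 in C57B/L6. Its 3 C57B/L6 arrays spanned the whole B.D(Chr5) range, and the log2 difference was -1.4e-04 with an SE of 0.22. C57B/L6 replicate 3 was the highest array in both, while the lowest array differed.

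Itgb1, on chromosome 8, encodes the beta 1 subunit that all 3 of these alpha subunits share. Its brightest probe set, 1452545_a_at, read 2360.0, 2395 and 2328 in B.D(Chr5) and 2180.4, 2236 and 2227 in C57B/L6. The strains did not overlap, and the spread within each was the narrowest among the tested members, with a ratio of 1.10 between the highest and lowest of all 6 arrays. The log2 difference was 0.092 with an SE of 0.073 and a 95% interval of -0.073 to 0.26 (limma adjusted p = 1.00).

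A second bright Itgb1 probe set, 1426918_at, read 1710.4, 2104 and 1573 in B.D(Chr5) and 1911, 1454 and 2029 in C57B/L6. It showed no such separation, with a log2 difference of 0.0017 and an SE of 0.15. The probe set 1427771_x_at, whose suffix marks probes that may hybridise with other sequences, was dim at 170, 141 and 185 in B.D(Chr5) and 99.8, 151 and 126 in C57B/L6. It had the largest difference of the tested members, 0.36 on the log2 scale (SE 0.20, 95% interval -0.091 to 0.82), with overlapping strains. The 3 remaining Itgb1 probe sets, with means of 22.8, 10.9 and 9.30 in B.D(Chr5) and 24.4, 19.2 and 8.33 in C57B/L6, were above background on 3, 1 and 0 of 6 arrays and were not tested.

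Itgb2, on chromosome 10, encodes the beta 2 subunit of leukocyte integrins, loss of which causes leukocyte adhesion deficiency in humans. Its 1 probe set read 2509, 2263 and 2799.5 in B.D(Chr5) and 2085, 2614 and 2904 in C57B/L6. The B.D(Chr5) arrays lay inside the C57B/L6 range, and the log2 difference was 0.0020 with an SE of 0.13 and a 95% interval of -0.29 to 0.29. Cd9, on chromosome 6, encodes a tetraspanin that is also abundant on platelets and megakaryocytes. It read 1504, 1353 and 1254 in B.D(Chr5) and 1372, 1575 and 1389 in C57B/L6, with a log2 difference of -0.077, an SE of 0.10 and a 95% interval of -0.31 to 0.15.

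Over the 19 tested probe sets the log2 differences ran from -0.14 to 0.36, with 9 positive and 10 negative. Their median was -1.4e-04, and that of all tested probe sets was 2.5e-04. The median size regardless of sign was 0.077, against 0.095 for all tested probe sets. For 16 of the 19, a difference of 1.5-fold in either direction lay outside the 95% interval. The exceptions were the 2 dimmer tested Itga5 probe sets and Itgb1 1427771_x_at, whose intervals reached beyond 1.5-fold and stayed within 2-fold. The log2 difference needed for a call exceeded the width of the interval for each of the 19, and ran from 0.48 for Itgb1 1452545_a_at to 2.17 for Itga5 1423268_at, so with 3 arrays per strain smaller differences would have gone uncalled at these SEs.

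**Figure D3:**
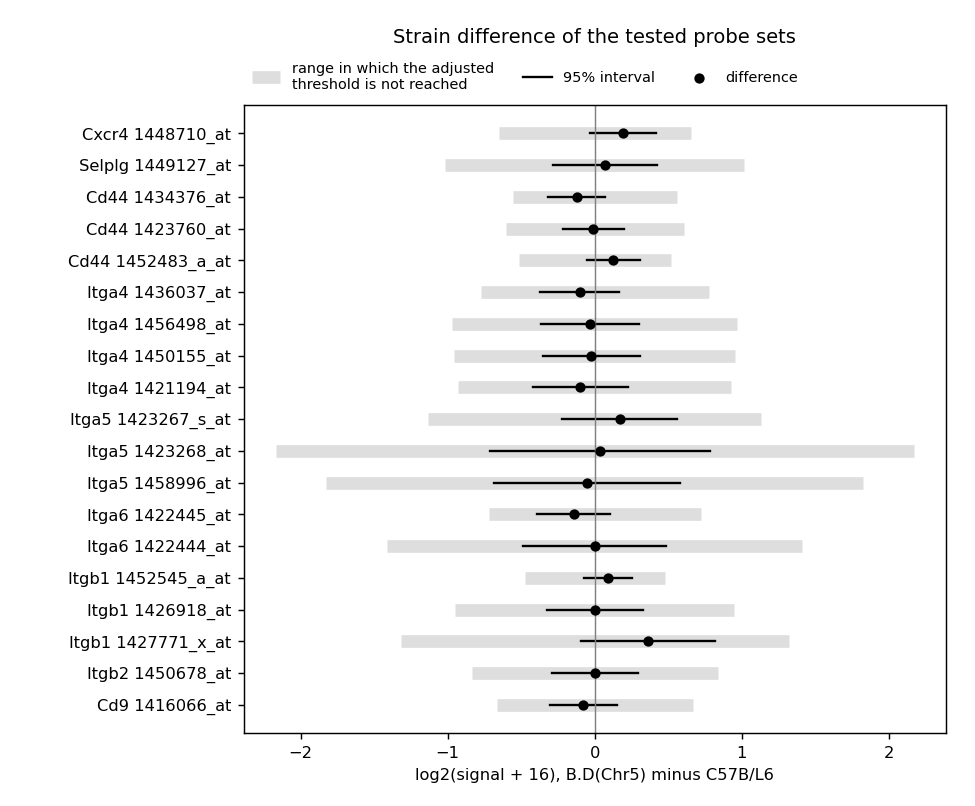
Log2 difference of B.D(Chr5) minus C57B/L6 for the 19 tested probe sets (points) with 95% intervals (lines); grey bars span the differences that, at that probe set's SE, would not reach the largest p that passed. Each interval crosses 0, and the largest point is 0.36 for Itgb1 1427771_x_at.

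Agreement of probe sets could be described in the 5 genes with more than 1 tested. There, 12 of 16 pairs had log2 differences of the same sign, with all 4 of Itga4, both of Itga6 and all 3 of Itgb1 alike. The 4 discordant pairs were between 1452483_a_at and the other two of Cd44, and between 1458996_at and the other two of Itga5. Some of these signs belong to values at 0, such as Itga6 1422444_at at -1.4e-04 and Itgb1 1426918_at at 0.0017, and turned with the processing. The same array was highest in 4 of 16 pairs and lowest in 5 of 16. Signal levels of 1 gene differed widely between probe sets, by a factor of 12.2 between the brightest and the dimmest tested probe set of Itga4 and 15.7 for Itgb1.

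**Figure D4:**
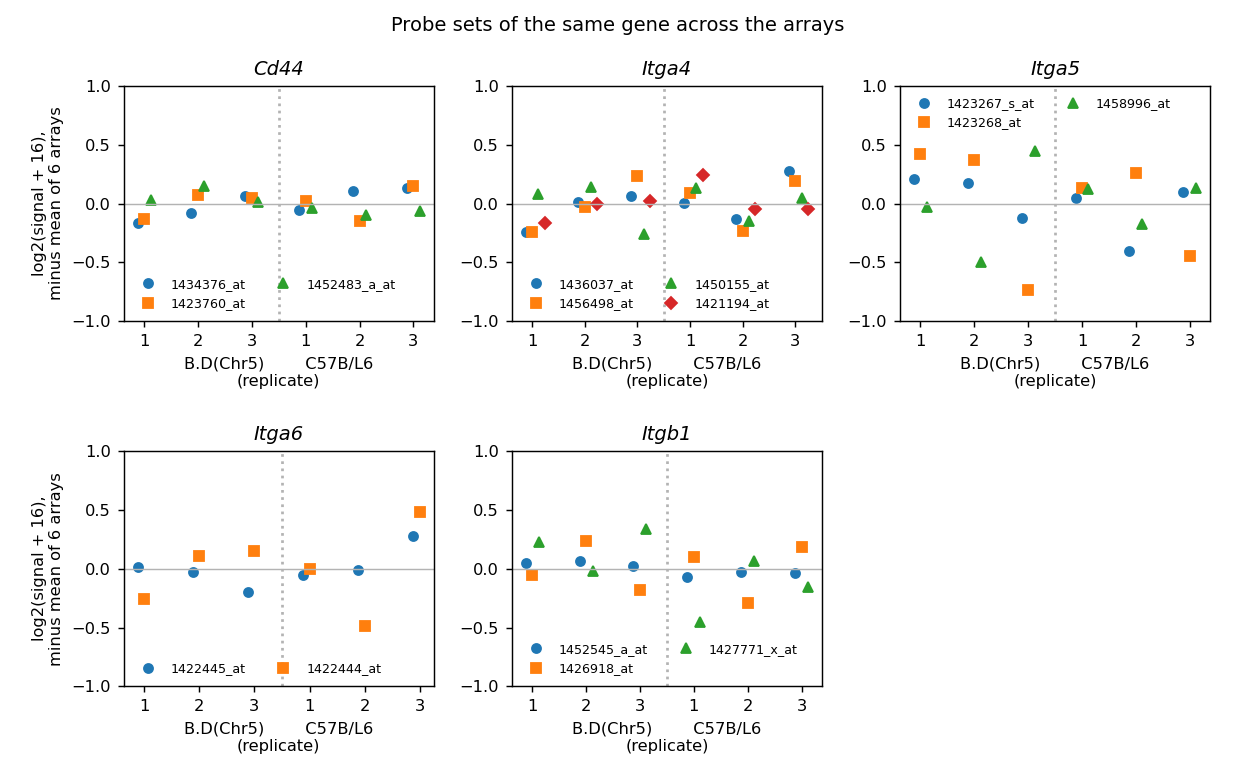
Log2(signal + 16) of each tested probe set minus its own mean over the 6 arrays (vertical axis), by replicate of B.D(Chr5) (left of the dotted line) and C57B/L6 (right), for the 5 genes with more than 1 tested probe set. Points of different probe sets of Itga5 are far apart on B.D(Chr5) replicate 3, and those of Cd44 stay close together.

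Over the 6 arrays, 36 pairs of members were compared on their brightest tested probe sets, and 0 of 36 passed an adjusted p of 0.05. The closest pair was Selplg and Itgb2, with Pearson's r = 0.921 (two-sided exact permutation p = 0.0167, adjusted over the 36 pairs 0.600) and Spearman's rho = 0.886 (exact permutation p = 0.0333, adjusted 0.974). It failed the correction. Without the 2 arrays farthest from the median of Selplg, which were its lowest, r was 0.533 over the other 4 arrays, a narrower range of Selplg signals. The 3 arrays of a strain are too few for a correlation within it. Of the other 35 pairs, 0 had an unadjusted exact permutation p under 0.05 for Pearson's r.

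As a description of patterns, the gene whose tested probe set followed each member most closely over the 6 arrays was found by Pearson's r. For Cxcr4 this was Ap1s2 (r = 0.994), for Selplg Akna (r = 0.994), for Cd44 Pbrm1 (r = 0.994), for Itga4 Ptpre (r = 0.997) and for Itgb2 B4galt5 (r = 0.995). For Itga5 it was Ube2h (r = 0.990), for Itga6 Sdr39u1 (r = 0.986), for Itgb1 4632427E13Rik (r = 0.987) and for Cd9 Slu7 (r = 0.995). Each is the highest of many values on 6 points, and between 90 and 403 probe sets of other genes had an r over 0.9 with a given member.

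The partners of these receptors were followed in 6 lists of 79 genes, of which 74 were measured and 58 tested. None was called (0 higher and 0 lower in limma, against 0.182% of probe sets). Of the 58, 5 had an unadjusted p under 0.05 in limma, against 4.75% of all tested probe sets. They were 2 genes of selectins and marrow ligands and 3 of other trafficking receptors. Of the 9 tested of 18 other integrin subunits, 4 were positive and 5 negative, with a median log2 difference of -0.024. Itgal, the alpha subunit of LFA-1, read 2236 ± 268 in B.D(Chr5) and 2149 ± 515 in C57B/L6, and Itgam, that of Mac-1, read 309 ± 125 in B.D(Chr5) and 228 ± 49.6 in C57B/L6 (SD, n = 3 each). Itga2b, the alpha subunit of the platelet fibrinogen receptor, had a log2 difference of -0.11, and Itgb7, the partner of alpha 4 in gut homing, had -0.12.

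Enzymes that decorate PSGL-1 and proteins that switch integrins on were followed next. Of these, 0 of 23 were called, against 0.182% of all tested probe sets. All 9 glycosyltransferase and sulfotransferase genes were tested, with 4 positive, 5 negative and a median of -0.017. They ran from -0.28 for the sialyltransferase gene St3gal6 to 0.13 for St3gal3. Among them were the fucosyltransferase gene Fut7 at -0.019 and the core 2 branching enzyme gene Gcnt1 at -0.086. Of 14 genes of integrin activation and motility, 4 were positive and 10 negative, with a median of -0.026. They ran from -0.19 for Apbb1ip to 0.39 for Rasgrp2, which encodes an activator of the integrin switch Rap1 (SE 0.18, limma unadjusted p = 0.0523). Fermt3, encoding kindlin-3, read 11237 ± 706 in B.D(Chr5) and 11836 ± 643 in C57B/L6 (SD, n = 3 each), and Tln1, encoding talin, had a log2 difference of -0.068. Of 7 tetraspanin genes, 2 were positive and 5 negative, with a median of -0.090.

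The widest values lay among ligands and other trafficking receptors. Of 7 tested genes of selectins and marrow ligands, 4 were positive and 3 negative, with a median of 0.30. Cxcl12, the ligand of CXCR4, read 838, 1164 and 773 in B.D(Chr5) and 800.3, 250.3 and 473 in C57B/L6. The highest C57B/L6 array lay within the B.D(Chr5) range, and the log2 difference of 0.97 had an SE of 0.34 (limma adjusted p = 0.905). Kitl, which encodes stem cell factor, had a log2 difference of 0.65 (limma adjusted p = 0.967). Vcam1, the ligand of VLA-4, had 0.30 (SE 0.18) and Fn1, the ligand of VLA-5, had 0.49 (SE 0.32). Fn1 read 623, 423 and 1238 in B.D(Chr5) and 381, 538 and 557 in C57B/L6, with overlapping strains. Icam1, the ligand of LFA-1, had -0.17 (SE 0.14) and Selp, P-selectin, had -0.14 (SE 0.16).

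Stromal markers were set beside Cxcl12 and Kitl. Of 7 tested genes of stroma, bone and endothelium, 6 were positive, among them Cxcl12 and Vcam1 themselves, and 1, Pdgfrb, was negative at -0.19. Of these, 0 were called. The summed signal of the 9 measured ones ranged from 2909 to 4855 in B.D(Chr5) and from 1393 to 3377 in C57B/L6. Cxcl12 and Vcam1 were part of this sum too. Of the 9 measured genes, 6 were above background on all 6 arrays, Col1a1 and Lepr on 5 of 6 and Kdr on 4 of 6. The part of stromal cells in the values of Cxcl12 and Kitl was not tested.

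Of 12 tested trafficking receptor genes, 8 were positive and 4 negative, with a median of 0.054. S1pr1, the receptor for sphingosine 1-phosphate that draws lymphocytes out of tissues, read 134, 103 and 170 in B.D(Chr5) and 211, 277 and 276 in C57B/L6. The strains did not overlap, and the log2 difference of -0.85 had an SE of 0.21 (limma adjusted p = 0.416). The chemokine receptor genes Ccr9 and Cxcr3 had -0.54 (SE 0.19, limma adjusted p = 0.905) and -0.58 (SE 0.23, limma adjusted p = 0.982). In both the strains overlapped. Beside them, 6 of 7 tested T and NK cell genes were negative and 0 were called, and the summed signal of the 9 measured ones ranged from 1232 to 1866 in B.D(Chr5) and from 1766 to 2727 in C57B/L6. Cd4 was above background on 0 of 6 arrays. Cd3d had the most negative log2 difference of the tested T and NK cell genes, at -0.80. It read 349, 277 and 258 in B.D(Chr5) and 418, 664 and 512 in C57B/L6. Among the tested genes of that list, Cd3d, Cd3g and Thy1 did not overlap between the strains. Cd3e, Cd8a, Cd2 and Ncr1 overlapped, and Cd8a was positive, at 0.24. The part of these cells in the values of S1pr1, Ccr9 and Cxcr3 was not tested.

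**Figure D5:**
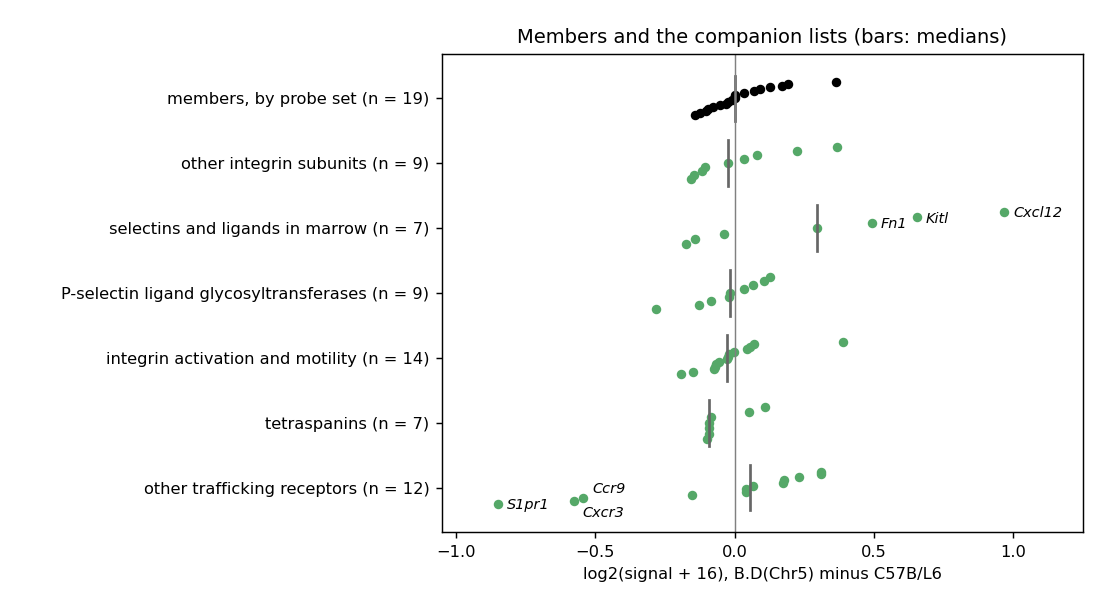
Log2 difference of B.D(Chr5) minus C57B/L6 for the 19 tested member probe sets (black) and for the brightest tested probe set of each gene in the 6 lists of partner genes (green), with medians as bars. Members lie between -0.14 and 0.36, and the widest partner values are those of Cxcl12 at 0.97 and S1pr1 at -0.85.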

How the data were processed

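RNA of 6 samples was measured on 1-colour arrays. The authors deposited a linear intensity for each probe set, computed with MAS5 per the submitters' processing notes, in a version not given in the sources used here. With 2% of values trimmed at either end, the mean of every array came to 500.003, which shows a common scaling. The arrays still differed in other measures. The share of probe sets above background was lower on each B.D(Chr5) array than on each C57B/L6 array. The 18S ribosomal RNA probe set read 1016 on B.D(Chr5) replicate 2 and 439 to 728 on the others. The part of these differences in the strain comparison was not tested. Each value column mapped to a sample, and 0 pairs of arrays were identical.

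Of 45101 probe sets, 64 controls were left out; 34945 of the rest had 1 gene symbol, 932 several and 9160 none. Symbols, chromosomes and gene order come from the platform annotation and, through Entrez identifiers, RefSeq's GRCm38.p6 annotation, where all 9 members were found. Intensities became log2(signal + 16), the upper 50% by mean were tested, and dim probe sets therefore show smaller fold changes than on the linear scale. The comparison of strains used limma 3.58.1 (R 4.3.3; lmFit, eBayes with trend, strain as the only term, two-sided), with Benjamini-Hochberg adjustment over all 22518 tested probe sets at 0.05. The fit was tested on simulated data.

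The members, the partner and marker lists and the tests were chosen with earlier results of these data known. By rule, the text gives every member probe set, the counts of each partner list with its called genes and set ligands and partners, and the gene most like each member. Kitl, S1pr1, Ccr9, Cxcr3, Rasgrp2, Apbb1ip, St3gal3 and St3gal6, the neighbours of Selplg and the marker genes were named after their values were seen; the relations between members were added then too. A gene in a list is given by its brightest tested probe set. Of the partner genes, 5 were not analysed here. Alternatives covered the pseudocount, filter, scaling, trend, replicate block, suffixes, a minimum change and leaving out each array. The number of arrays limits the precision. Deviations of same-numbered arrays from their strain means correlated at -0.11, -0.20 and 0.20 over the tested probe sets, so the numbers were not taken to pair the samples.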

Additional observations from a re-analysis of the deposited data

How the results depend on the processing

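The number of tested member probe sets called was 0 under each of the 14 alternatives run for them, with a lowest adjusted p of 0.382 in limma. Without a filter on dim probe sets, 0 of the 6 otherwise untested members were called either. Over all probe sets, 41 calls became 67 when arrays were centred on the median, 25 without the trend, 27 with the replicate block and 23 without probe sets ending in _x_at or _s_at, and with 1 array left out they ranged from 21 to 73; the cause was not tested. The replicate block changed no call of a member. Same-numbered arrays did not all correlate best with each other, so the labels' numbers are not shown to pair samples.

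The sign of a difference held in every alternative for 9 member probe sets and turned in at least 1 for 10, none of them called. With 1 array left out, values of the 9 also moved, from 0.11 to 0.30 for Cxcr4, from -0.19 to -0.069 for Cd44 1434376_at, from 0.086 to 0.15 for Cd44 1452483_a_at, from -0.15 to -6.9e-05 for Itga4 1421194_at, from 0.014 to 0.28 for Itga5 1423267_s_at, from -0.20 to -0.040 for Itga6 1422445_at, from 0.081 to 0.10 for Itgb1 1452545_a_at, from 0.23 to 0.49 for Itgb1 1427771_x_at and from -0.15 to -0.014 for Cd9. For the 10, the log2 difference ranged from -0.071 to 0.23 for Selplg 1449127_at, from -0.088 to 0.060 for Cd44 1423760_at, from -0.19 to 0.011 for Itga4 1436037_at, from -0.15 to 0.084 for Itga4 1456498_at, from -0.11 to 0.098 for Itga4 1450155_at, from -0.18 to 0.41 for Itga5 1423268_at, from -0.29 to 0.18 for Itga5 1458996_at, from -0.24 to 0.24 for Itga6 1422444_at, from -0.14 to 0.095 for Itgb1 1426918_at and from -0.13 to 0.11 for Itgb2 1450678_at. Itga6 1422444_at was 4.4e-04 with a pseudocount of 1 and 0.0057 with quantile normalization. Itgb1 1426918_at was -0.010 when centred on the median. Itgb2 1450678_at was -9.3e-05 with quantile normalization and -0.0099 when centred. The cause was not tested. Signals near background limit 6 of the 25 probe sets to a description.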
